A study of Mus musculus with 12 samples.

Results

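T cell lineage and receptor signaling genes are a set of 36 genes, taken by symbol from a table of 18211 mouse genes measured in MC38 tumors. MC38 is a mouse colorectal adenocarcinoma line, and its cells were injected under the skin of female C57BL/6 mice bought at 5 weeks of age. The 12 tumors formed 4 groups of 3. CK mice received vehicle, PB-020 mice an oral inhibitor of IGF-1R, a growth factor receptor, at 50 mg/kg per day, anti-PD-1 mice an antibody against PD-1 at 200 μg per injection on days 9, 12, 15 and 18, and PB-020+anti-PD-1 mice both (called the combination here). Mice were assigned at random on day 7 after cell injection and were all killed when the tumors of the control mice neared the size limit. Whether CK mice received a control antibody, or antibody-only mice the oral vehicle, is not stated in the sources used here. All tumors carried host and tumor RNA together, so fewer cells of a type and less RNA per cell cannot be told apart. The sources do not say which mouse each tumor came from, and p-values measure the spread between these tumors.

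T cells recognise peptides on MHC molecules through the T cell receptor, which has no signaling tail of its own and relies on the CD3 chains beside it. When it is engaged with a CD4 or CD8 coreceptor, the kinase LCK phosphorylates the CD3 chains, ZAP-70 docks on them, and the adaptors LAT and SLP-76 pass the signal to calcium, protein kinase C and MAP kinase branches. PD-1 is an inhibitory receptor that dampens this signal and that of the costimulatory receptor CD28, and antibodies that block it are used as cancer therapy. The 36 genes were ordered by role into the CD3 chains, coreceptors, kinases, adaptors and regulators, surface receptors, and transcription factors.

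Sequencing depth differed little, with 16545394 to 17217035 expected counts per tumor. A pair of tumors stood apart. Anti-PD-1 tumor 1 held a summed level of 8 skeletal muscle markers of 562 FPKM (a level per gene length and library total), against 12.4 to 69.8 in the other tumors. CK tumor 3 held a summed level of 7 neutrophil markers of 417 FPKM, against 8.3 to 38.6 elsewhere. The calls lost or gained without either of them are named beside the genes or after them. Of 6 epithelial markers of tumor cells only Cdh1 passed the filter on low counts, and the other 5, Epcam and 4 keratin or claudin genes, lay at 0.54 FPKM or lower in every tumor.

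The T cell genes were at low levels in CK tumors. Tcf7, a transcription factor of the Wnt pathway and of naive and stem-like T cells, had the highest mean level there (12.4 FPKM), followed by Lcp2, the adaptor SLP-76 (6.72 FPKM), and Cd3g (4.54 FPKM). Bcl11b, a factor that fixes T cell identity, had the lowest (0.0567 FPKM). Which cells of the tumors these levels came from was not tested, also for Tcf7. Of the 36 genes, 33 passed the count filter. Trat1, Sit1 and Sh2d1a, which encode a receptor-associated adaptor, an inhibitory adaptor and the adaptor SAP, had 1 to 14 counts per tumor and did not pass. Slamf1 and Bcl11b passed mainly through tumors given the antibody, since 0 and 2 of the 6 tumors without it reached the filter's cutoff of 0.59 CPM, counts scaled to library size. Their fitted changes are a description, and counts of genes called are also given without them.

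The T cell genes were higher in tumors given the antibody, with and without PB-020. In the combination, 23 of the 33 rose against CK and 0 fell (edgeR's quasi-likelihood test, Benjamini-Hochberg adjusted p under 0.05 over 13563 genes), where 8.35% of all genes tested rose and 9.6% fell. Their median log2 change was 1.54, and that of all genes 0.00. With anti-PD-1 alone, 18 of 33 rose and 0 fell, beside 4.18% and 4.08% of all genes, with a median log2 change of 1.46. Without Slamf1 and Bcl11b the counts were 22 and 17 of 31. Without anti-PD-1 tumor 1, the tumor rich in muscle RNA, only 6 of 34 were called with anti-PD-1, beside 2.13% of all genes, and the median was 0.88. With PB-020 alone, 0 of 33 were called, as was the case for 0% of all genes in each direction, and the median log2 change was 0.29. At an unadjusted p under 0.05, only Themis passed with PB-020, beside 5.46% of all genes (DESeq2 called 0 at an adjusted p under 0.05), and 28 of 33 log2 changes were above 0, beside 48.7% of all genes. The comparisons share the CK tumors.

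Ranges of the individual tumors gave the same order. In the combination, 31 of the 36 genes had all 3 tumors above all 3 CK tumors, beside 17.9% of all genes tested. The 5 others were Txk, Lcp2, Trat1, Tcf7 and Lef1. The 31 include Slamf1 and Bcl11b, which passed the filter mainly through tumors with the antibody, and Sit1 and Sh2d1a, which did not pass. For these genes the ranges are a description. The counts are over 36 genes, 3 of which were not tested, and the shares are over the genes tested. For anti-PD-1 the count was 24 of 36 (11.8% of all genes), and for PB-020 it was 9 of 36 (6.19%). Bcl11b and Sh2d1a are in both of these counts, and Slamf1 and Sit1 in neither. None of the 36 genes was below the range of CK in all 3 tumors of any of these groups, as 22.4%, 17.2% and 8.74% of all genes were.

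**Figure D1:**
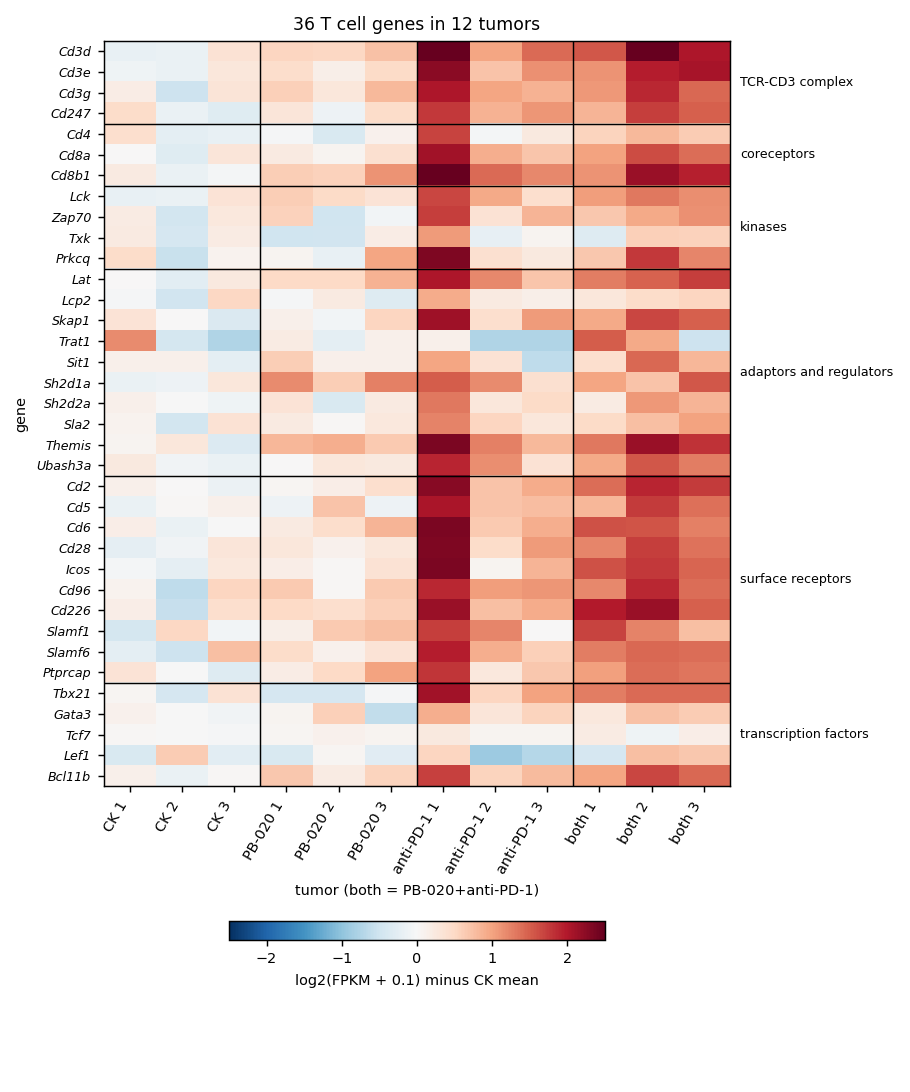
Log2(FPKM + 0.1) of the 36 T cell genes (vertical axis, grouped by role) in the 12 tumors (horizontal axis), as the difference from the mean of the 3 CK tumors. Values beyond the colour scale take its end colours. Anti-PD-1 tumor 1 is the darkest red, or among the darkest, for most genes, and Tcf7 and Lcp2 stay pale in most tumors.

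The CD3 genes on chromosome 9 lie side by side. On GRCm38.p6, Cd3g (44969572 to 44980431) and Cd3d (44981769 to 44987052) are read away from each other with 1337 bases between them, and Cd3e (44998735 to 45009663) follows 11682 bases further. Cd247, which encodes CD3 zeta, is on chromosome 1 (165779952 to 165871153). The 250 bases before the RefSeq start listed for each neighbour are shown because these genes moved together. Letters AGGAAG or CTTCCT, the core that ETS family factors prefer on either strand, are in capitals. For Cd3d and Cd3e that start lies inside the span given above, so the end of the window overlaps the span.
Cd3g, chr9:44980432-44980681, minus strand: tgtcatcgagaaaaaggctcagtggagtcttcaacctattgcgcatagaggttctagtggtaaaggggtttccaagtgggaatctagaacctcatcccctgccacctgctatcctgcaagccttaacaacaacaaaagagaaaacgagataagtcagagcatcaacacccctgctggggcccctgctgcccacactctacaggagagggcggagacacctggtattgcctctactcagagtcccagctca
Cd3d, chr9:44981536-44981785, plus strand: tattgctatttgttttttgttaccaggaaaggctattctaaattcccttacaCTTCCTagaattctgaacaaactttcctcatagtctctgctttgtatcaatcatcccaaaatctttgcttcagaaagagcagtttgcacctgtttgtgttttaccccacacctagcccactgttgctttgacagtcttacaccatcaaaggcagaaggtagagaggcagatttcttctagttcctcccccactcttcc
Cd3e, chr9:45009612-45009861, minus strand: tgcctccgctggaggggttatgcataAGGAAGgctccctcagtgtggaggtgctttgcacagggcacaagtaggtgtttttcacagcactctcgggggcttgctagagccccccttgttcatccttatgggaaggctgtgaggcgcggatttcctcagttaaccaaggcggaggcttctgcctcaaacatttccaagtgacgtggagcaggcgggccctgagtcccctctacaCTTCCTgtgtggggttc
The capitals occur 1 time in the Cd3d window, 2 times in that of Cd3e and 0 times in that of Cd3g. The last match of Cd3e lies in the part that overlaps its span. RefSeq windows of 300 bases (250 before and 50 after the start) were listed for 25 of the 36 genes, 34 windows in all. The ETS letters were in 17 of these 34 and in 35.4% of all 32851 windows. Letters for RUNX factors (TGTGGT or ACCACA) were in 20.6% against 16.8%, those for TCF/LEF factors (CTTTGA or TCAAAG) in 26.5% against 16%, those for GATA factors (AGATAA or TTATCT) in 14.7% against 11.2%, and those for NFAT (GGAAAA or TTTTCC, which share GGAA with the ETS letters) in 17.6% against 23.4%. The TATA box (TATAAA or TTTATA) was in 14.7% against 13.6%. These matches are descriptions of letters, not of binding.

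All 4 CD3 chains rose in both antibody groups with all tumors in the fit. Without anti-PD-1 tumor 1 only Cd3d of the 4 was still called with anti-PD-1, and in a fit of the anti-PD-1 and CK tumors alone none was, while all 4 kept their call in the combination in both fits. Cd3d, which encodes CD3 delta, had levels of 0.69, 0.70 and 1.05 FPKM in CK tumors 1 to 3, and of 1.20, 1.19 and 1.40 with PB-020. With anti-PD-1 alone its levels were 5.74, 1.67 and 2.31 FPKM, and in the combination 2.55, 5.03 and 3.54. The tumors with the antibody were all above those without, and anti-PD-1 tumor 1 was the highest. The log2 change of Cd3d against CK was 2.25 (SE 0.44, 4.77-fold, edgeR adjusted p = 0.0057) in the combination, 2.03 (SE 0.44, adjusted p = 0.018) with anti-PD-1 and 0.61 (SE 0.46, adjusted p = 0.90) with PB-020. The change with anti-PD-1 was 1.3 without anti-PD-1 tumor 1 (adjusted p = 0.041).

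Cd3e, which encodes CD3 epsilon, had levels of 0.79, 0.76 and 1.07 FPKM in CK, 1.20, 0.97 and 1.24 with PB-020, 4.52, 1.47 and 2.03 with anti-PD-1, and 2.0, 3.65 and 3.91 in the combination. Cd3g, which encodes CD3 gamma, had levels of 5.04, 3.03 and 5.54 FPKM in CK, 6.71, 5.36 and 7.79 with PB-020, 18.09, 8.75 and 8.07 with anti-PD-1, and 9.47, 16.51 and 12.08 in the combination. For both genes, every tumor with the antibody lay above every tumor without it. The log2 changes in the combination were 1.87 for Cd3e (SE 0.40, edgeR adjusted p = 0.0085) and 1.5 for Cd3g (SE 0.34, adjusted p = 0.015). With anti-PD-1 they were 1.61 for Cd3e (SE 0.40, adjusted p = 0.028) and 1.38 for Cd3g (SE 0.34, adjusted p = 0.034). When anti-PD-1 tumor 1 was left out these became 1.01 (edgeR adjusted p = 0.089) and 0.92 (adjusted p = 0.070) and did not pass. The spans of these neighbours do not overlap in the annotation used here.

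Cd247 carries most of the phosphorylation motifs of the receptor complex. Its levels were 1.80, 1.13 and 1.01 FPKM in CK, 1.59, 1.15 and 1.80 with PB-020, 4.56, 2.40 and 2.85 with anti-PD-1, and 2.39, 4.46 and 3.79 in the combination. The groups with and without the antibody did not overlap. Its log2 change was 1.52 (SE 0.32, edgeR adjusted p = 0.0080) in the combination and 1.35 (SE 0.32, adjusted p = 0.024) with anti-PD-1, which became 1.0 (adjusted p = 0.065) without anti-PD-1 tumor 1.

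**Figure D2:**
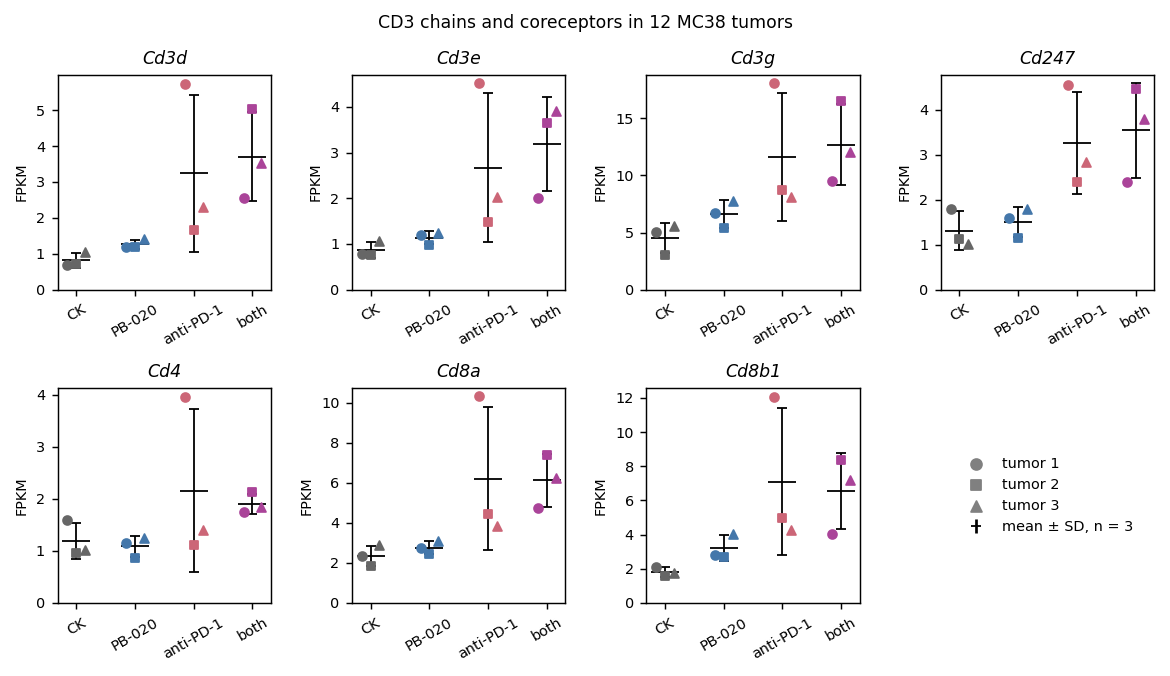
Levels in FPKM of the 4 CD3 chains and 3 coreceptor genes in each tumor (points, shaped by tumor number) with the mean ± SD of each group (n = 3), where both marks the combination. Cd3d levels lie at 1.40 FPKM or lower without the antibody and at 1.67 or higher with it. Cd4 levels overlap between anti-PD-1 and CK, while all combination tumors lie above CK and PB-020.

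Of the coreceptors, both CD8 chains rose in both antibody groups, also without anti-PD-1 tumor 1, and Cd4 did not pass the test. Cd8a, on chromosome 6 with Cd8b1 35934 bases away, had levels of 2.33, 1.86 and 2.88 FPKM in CK, 2.73, 2.43 and 3.08 with PB-020, 10.33, 4.45 and 3.84 with anti-PD-1, and 4.73, 7.39 and 6.25 in the combination. The tumors with the antibody were all above those without. Its log2 change was 1.40 (SE 0.35, edgeR adjusted p = 0.025) in the combination and 1.41 (SE 0.35, adjusted p = 0.040) with anti-PD-1.

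Cd8b1, the beta chain of the CD8 heterodimer on cytotoxic T cells, had levels of 2.11, 1.58 and 1.74 FPKM in CK and of 2.80, 2.71 and 4.06 with PB-020. Its levels were 12.06, 4.98 and 4.26 with anti-PD-1 and 4.06, 8.37 and 7.17 in the combination. All 3 PB-020 tumors were above all CK tumors, though the log2 change of 0.83 (SE 0.42, edgeR adjusted p = 0.87) did not pass the test. The log2 change was 1.86 (SE 0.41, adjusted p = 0.012) in the combination and 1.98 (SE 0.41, adjusted p = 0.019) with anti-PD-1.

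Cd4, the coreceptor for MHC class II, had levels of 1.59, 0.96 and 1.01 FPKM in CK, 1.14, 0.86 and 1.25 with PB-020, 3.96, 1.12 and 1.39 with anti-PD-1, and 1.74, 2.12 and 1.85 in the combination. With anti-PD-1 only tumor 1 was above the CK range, whereas all 3 combination tumors were above it. The log2 changes of Cd4 were 0.69 (SE 0.41, edgeR adjusted p = 0.26) in the combination and 0.87 (SE 0.41, adjusted p = 0.20) with anti-PD-1. In a fit without anti-PD-1 tumor 1, Cd4 was among the 27 of 34 genes called in the combination, beside 12.3% of all genes raised.

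Among 4 kinases, Lck rose in both antibody groups and Zap70, Prkcq and Txk passed in neither. The calls of Lck held without anti-PD-1 tumor 1, and Zap70 and Prkcq were then called in the combination. Lck, the kinase that starts receptor signaling, had levels of 1.98, 2.0 and 2.87 FPKM in CK, 3.52, 3.19 and 2.88 with PB-020, 7.39, 4.42 and 3.04 with anti-PD-1, and 4.78, 5.78 and 5.17 in the combination. The PB-020 tumors were all above CK, by little in tumor 3. Its log2 change was 1.24 (SE 0.26, edgeR adjusted p = 0.0087) in the combination, 1.16 (SE 0.26, adjusted p = 0.021) with anti-PD-1 and 0.54 (SE 0.26, adjusted p = 0.87) with PB-020.

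Zap70, the kinase that binds phosphorylated CD3 chains, had levels of 1.18, 0.70 and 1.22 FPKM in CK, 1.55, 0.68 and 0.96 with PB-020, 3.57, 1.32 and 1.89 with anti-PD-1, and 1.67, 2.04 and 2.33 in the combination. Txk, a kinase of the TEC family, had levels of 0.66, 0.39 and 0.65 FPKM in CK, 0.36, 0.37 and 0.64 with PB-020, 1.26, 0.47 and 0.59 with anti-PD-1, and 0.42, 0.89 and 0.88 in the combination. Zap70 did not overlap between CK and either antibody group, and Txk did. The log2 changes in the combination were 0.97 for Zap70 (SE 0.38, edgeR adjusted p = 0.090), 0.38 for Txk (SE 0.42, adjusted p = 0.56) and 1.47 for Prkcq, protein kinase C theta (SE 0.59, adjusted p = 0.10).

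Of 7 adaptors and regulators tested, 5 rose in the combination and 4 with anti-PD-1. Of those 4 only Themis kept its call with anti-PD-1 without anti-PD-1 tumor 1. Themis, a regulator of receptor signaling in developing and mature T cells, had the largest change of the 33 genes. Its levels were 0.14, 0.18 and 0.08 FPKM in CK, 0.31, 0.33 and 0.26 with PB-020, 1.08, 0.45 and 0.30 with anti-PD-1, and 0.47, 0.92 and 0.70 in the combination. Every treated tumor was above every CK tumor. The log2 change of Themis was 2.69 (SE 0.42, 6.45-fold, edgeR adjusted p = 0.0026) in the combination, 2.48 (SE 0.43, adjusted p = 0.0084) with anti-PD-1 and 1.39 (SE 0.44, unadjusted p = 0.0071, adjusted p = 0.87) with PB-020.

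Lat, the scaffold on which the signaling complex forms, had levels of 0.99, 0.80 and 1.18 FPKM in CK, 1.43, 1.43 and 1.86 with PB-020, 4.30, 2.37 and 1.64 with anti-PD-1, and 2.51, 2.91 and 3.48 in the combination. All treated tumors again lay above the CK tumors. Its log2 change was 1.6 (SE 0.34, edgeR adjusted p = 0.0078) in the combination and 1.51 (SE 0.34, adjusted p = 0.019) with anti-PD-1, which became 1.05 (adjusted p = 0.053) without anti-PD-1 tumor 1. Lcp2, the partner of LAT that is also used in platelets and mast cells, had levels of 6.32, 4.58 and 9.25 FPKM in CK, 6.34, 7.56 and 5.16 with PB-020, 12.33, 7.53 and 7.19 with anti-PD-1, and 7.87, 8.94 and 9.34 in the combination. These groups overlapped, and its log2 change in the combination was 0.40 (SE 0.27, adjusted p = 0.33).

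Of the other adaptors and regulators, 3 rose in the combination. Skap1, which links the receptor to integrins, and Ubash3a, which restrains receptor signaling, rose in both antibody groups, with log2 changes in the combination of 1.54 (SE 0.43) and 1.64 (SE 0.43). Neither was called with anti-PD-1 when its tumor 1 was left out. Sh2d2a, an adaptor that binds LCK, rose in the combination (1.08, SE 0.32, edgeR adjusted p = 0.040) and had a log2 change of 1.06 (SE 0.32, adjusted p = 0.065) with anti-PD-1. Without CK tumor 3, Skap1, Ubash3a and Sh2d2a lost their calls in the combination. Sla2, which lowers surface receptor levels, did not pass in the combination (0.79, SE 0.32, adjusted p = 0.10). In a fit with no filter, the log2 changes of the 3 genes with few counts in the combination were 1.38 for Sh2d1a (SE 0.55), 1.32 for Sit1 (SE 0.70) and 0.76 for Trat1 (SE 0.51), with adjusted p of 0.12, 0.24 and 0.37.

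Of 10 surface receptors, 9 rose in the combination and 5 with anti-PD-1. Of those 5 (Cd2, Cd6, Cd28, Cd96 and Cd226) only Cd2 kept its call with anti-PD-1 without anti-PD-1 tumor 1. Cd226, the activating receptor DNAM-1, had levels of 0.22, 0.09 and 0.28 FPKM in CK, 0.30, 0.28 and 0.33 with PB-020, 1.17, 0.38 and 0.44 with anti-PD-1, and 1.02, 1.17 and 0.70 in the combination. Cd2, an adhesion and costimulatory receptor of T and natural killer cells, had levels of 2.27, 2.07 and 1.86 FPKM in CK, 2.14, 2.32 and 2.79 with PB-020, 10.31, 3.43 and 3.99 with anti-PD-1, and 5.60, 8.04 and 7.11 in the combination. Neither gene overlapped between tumors with and without the antibody. The log2 changes in the combination were 2.19 for Cd226 (SE 0.45, edgeR adjusted p = 0.0070) and 1.75 for Cd2 (SE 0.36, adjusted p = 0.0074). With anti-PD-1 they were 1.73 (SE 0.45, adjusted p = 0.033) and 1.53 (SE 0.36, adjusted p = 0.023). Leaving out anti-PD-1 tumor 1 gave 1.03 (edgeR adjusted p = 0.11) and 0.87 (adjusted p = 0.042).

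Slamf1, a self-binding receptor of the SLAM family, was the surface receptor that did not pass in the combination. Its levels were 0.04, 0.17 and 0.08 FPKM in CK, 0.11, 0.20 and 0.22 with PB-020, 0.53, 0.34 and 0.09 with anti-PD-1, and 0.51, 0.35 and 0.22 in the combination. Its log2 change of 2.23 was large but imprecise (SE 0.77). Slamf1 would not have entered the test without the tumors given the antibody, so this change is a description. The other 7 receptors had log2 changes of 1.25 to 1.73 in the combination. These include the costimulatory receptors Cd28 (1.73, SE 0.44) and Icos (1.72, SE 0.49), which lie 187413 bases apart on chromosome 1, and the neighbours Cd5 (1.55, SE 0.44) and Cd6 (1.66, SE 0.42) on chromosome 19, which tune receptor signaling. With anti-PD-1, Cd28 and Cd6 rose, and Cd5 (adjusted p = 0.051), Icos (adjusted p = 0.083), Slamf6 (adjusted p = 0.086) and Ptprcap, a partner of CD45 (adjusted p = 0.081), did not pass. Without anti-PD-1 tumor 1, Cd28 and Cd6 became 1.0 (edgeR adjusted p = 0.078) and 0.90 (adjusted p = 0.074) with anti-PD-1. Without CK tumor 3, Cd5, Cd6, Icos and Ptprcap lost their calls in the combination.

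Of the 5 transcription factors, Tbx21 rose in both antibody groups, and Gata3, Tcf7 and Lef1 passed in neither. Bcl11b would not have entered the test without the tumors given the antibody, so its values are given as a description. Bcl11b had levels of 0.07, 0.04 and 0.06 FPKM in CK, 0.15, 0.08 and 0.13 with PB-020, 0.41, 0.13 and 0.17 with anti-PD-1, and 0.21, 0.40 and 0.32 in the combination. Tbx21, which encodes T-bet, the factor of type 1 and cytotoxic T cells and of natural killer cells, had levels of 0.34, 0.22 and 0.45 FPKM in CK, 0.22, 0.22 and 0.32 with PB-020, 1.72, 0.52 and 0.76 with anti-PD-1, and 0.94, 1.03 and 1.03 in the combination. Each gene was above CK in every tumor with the antibody. The log2 changes in the combination were 2.41 for Bcl11b (SE 0.52) and 1.59 for Tbx21 (SE 0.42, edgeR adjusted p = 0.020). That of Tbx21 with anti-PD-1 was 0.96 without anti-PD-1 tumor 1 (adjusted p = 0.12) and did not pass.

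Lef1, a partner of TCF1 in Wnt signaling and in T cell development, had levels of 0.43, 0.98 and 0.48 FPKM in CK, 0.43, 0.62 and 0.47 with PB-020, 0.91, 0.27 and 0.32 with anti-PD-1, and 0.42, 1.06 and 1.0 in the combination. These ranges overlapped. Its log2 changes were -0.36 (SE 0.44, edgeR adjusted p = 0.64) with anti-PD-1 and 0.17 (SE 0.43, adjusted p = 0.81) in the combination. The log2 changes in the combination were 0.12 for Tcf7 (SE 0.08, adjusted p = 0.34) and 0.60 for Gata3, a factor of type 2 helper cells (SE 0.27, adjusted p = 0.13). Tcf7 levels lay between 11.59 and 14.68 FPKM in all 12 tumors, both ends of which were tumors with the antibody.

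**Figure D3:**
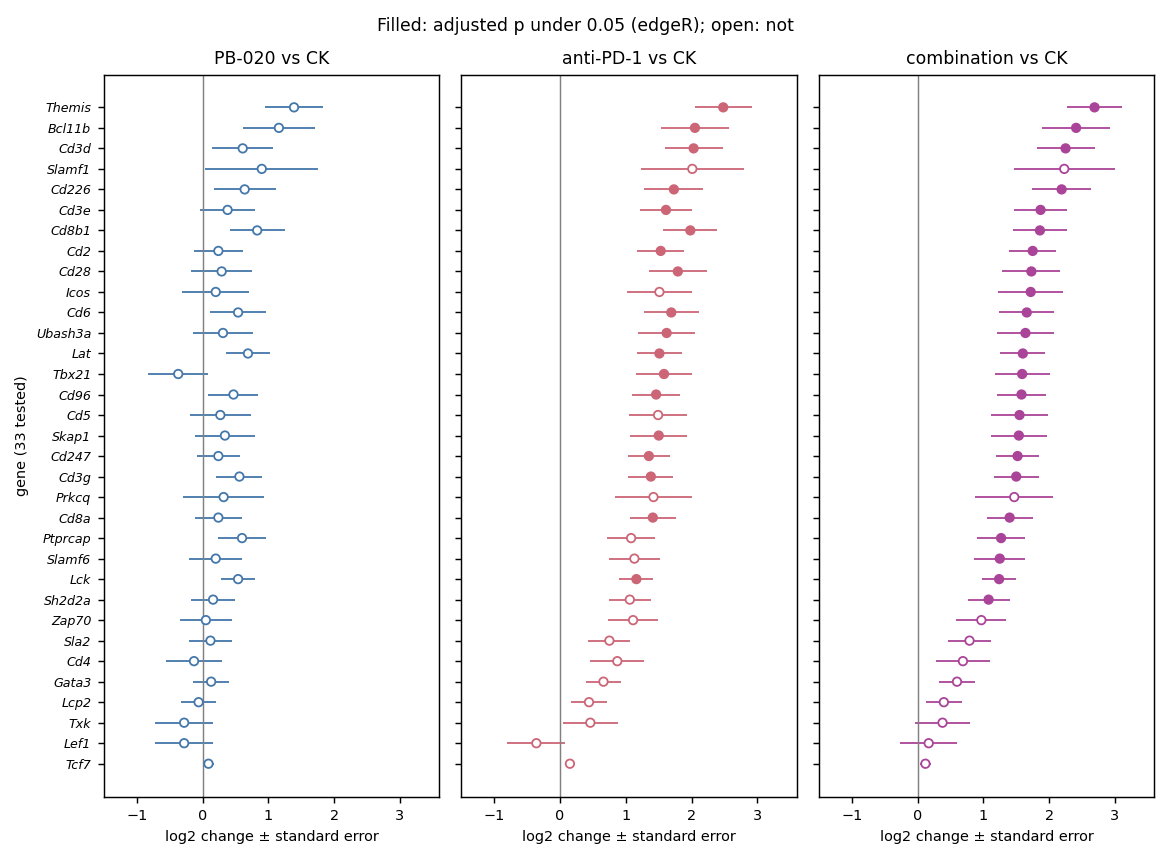
Log2 change against CK (horizontal axis, ± standard error) of the 33 T cell genes tested, ordered by the change in the combination. Filled points have an edgeR adjusted p under 0.05, which holds for 0 genes with PB-020, 18 with anti-PD-1 and 23 in the combination.

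The counts of calls rested on few tumors. For anti-PD-1 the count of 18 became 1 without CK tumor 2 (0.473% of all genes raised), 5 without CK tumor 1 (2.51%), 6 without CK tumor 3 (2.46%), 6 without anti-PD-1 tumor 1 and 10 without anti-PD-1 tumor 3 (0.93%). It was 0 of 32 in a fit of the anti-PD-1 and CK tumors alone, where 0.00754% of all genes rose. The 6 genes that kept their call without anti-PD-1 tumor 1 were Lck, Cd8a, Cd8b1, Cd2, Themis and Cd3d. Without CK tumor 3, Lck, Lat, Cd96, Themis and Cd3d kept theirs and Slamf6 gained one.

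For the combination the count of 23 became 9 without CK tumor 2 (2.39% of all genes), 11 without combination tumor 2 (3.89%) and 16 without CK tumor 3 (5.38%). It was 27 of 32 in a fit of the combination and CK tumors alone (11.4% of all genes). The 9 genes called without CK tumor 2 were Lck, Lat, Cd2, Cd3e, Cd226, Cd247, Themis, Bcl11b and Cd3d. Without CK tumor 3 and anti-PD-1 tumor 1 together, 28 of 34 genes were called in the combination (11% of all genes raised) and 4 with anti-PD-1 (1.73%), which were Lck, Cd96, Cd8a and Themis. The 5 genes gained in the combination were Lcp2, Prkcq, Sla2, Slamf1 and Zap70. In these lists, Bcl11b and Slamf1 entered the test through tumors with the antibody, so their calls are a description.

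**Figure D4:**
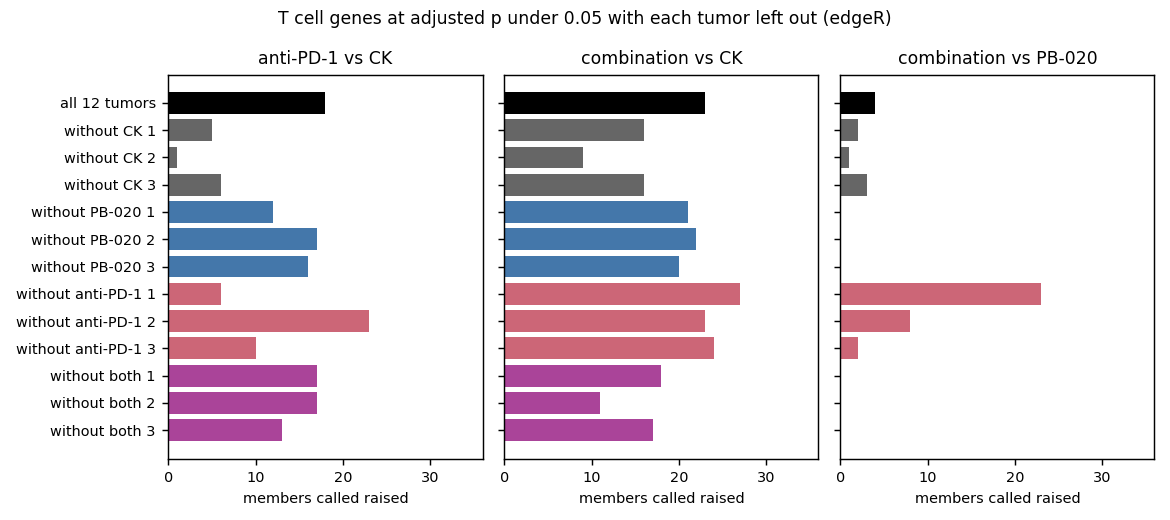
Number of T cell genes called raised (horizontal axis, edgeR adjusted p under 0.05) with all 12 tumors and with each tumor left out in turn, in 3 comparisons (both marks the combination). The counts range from 1 to 23 for anti-PD-1, from 9 to 27 for the combination against CK and from 0 to 23 for the combination against PB-020.

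Of 33 T cell genes, 0 were called in either direction when the combination was compared with the antibody alone, beside 0% of all genes. None passed an unadjusted p under 0.05 (7.26% of all genes did), DESeq2 also called 0, and none of the 36 was above anti-PD-1 in all 3 tumors (5.12% of all genes were). For most genes this range count could only be 0, because anti-PD-1 tumor 1 was the highest of all tumors for 31 of 33. The log2 difference was above 0 for 23 of 33 genes (43.5% of all genes). Its median was 0.05, and became 0.62 without anti-PD-1 tumor 1, again with 0 called. The 95% intervals of the differences, from the SE with 8 residual degrees of freedom, were wide, with a median width of 1.70 on the log2 scale. Their lowest bound was -1.23 and their highest 1.68, so these data do not show that the levels were alike.

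Set against PB-020 alone, the combination had 4 of 33 genes raised and 0 lowered, beside 1.25% of all genes raised and 2.11% lowered. The log2 differences were 1.96 for Tbx21 (SE 0.43, edgeR adjusted p = 0.033), 1.65 for Cd3d (SE 0.42, adjusted p = 0.049), 1.51 for Cd2 (SE 0.35, adjusted p = 0.039) and 1.28 for Cd247 (SE 0.32, adjusted p = 0.046). All 33 differences were above 0 (49.8% of all genes were), with a median of 1.13, and 25 of 36 genes did not overlap (14.5% of all genes). Bcl11b is among the 25, and Slamf1, Sit1 and Sh2d1a are not. The count of 4 was 13 with DESeq2 (3.95% of all genes raised) and 25 of 32 in a fit of these groups alone (6.14%). It was 23 without anti-PD-1 tumor 1 (4.41%) and 8 without anti-PD-1 tumor 2 (2.22%). It was 2 without CK tumor 1 (0.785%) or anti-PD-1 tumor 3 (0.988%) and 1 without CK tumor 2 (0.967%). It was 0 without any single PB-020 or combination tumor, beside 0%, 1.12% and 0.0146% of all genes without PB-020 tumors 1 to 3 and 0%, 0% and 0.233% without combination tumors 1 to 3.

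The interaction, which is the combination minus both single treatments plus CK on the log2 scale, was called for 0 of 33 genes, as for 0% of all genes. None had an unadjusted p under 0.05 (2.29% of all genes did), and DESeq2 called 0. Its median was -0.21, and 0.30 without anti-PD-1 tumor 1. Themis was nearest to the threshold (log2 value -1.18, SE 0.57, edgeR adjusted p = 1). Averaged over both antibody states, PB-020 gave 0 calls of 33 (0% of all genes) and a median log2 difference of 0.19, with Themis the 1 gene at an unadjusted p under 0.05, as 10.9% of all genes were (0.80, SE 0.29, edgeR adjusted p = 0.34). Averaged over both PB-020 states, the antibody gave 28 raised of 33 and 0 lowered, beside 11.8% of all genes raised and 12.3% lowered, with a median log2 difference of 1.29. Without Slamf1 and Bcl11b the count was 26 of 31. The 5 not called were Cd4 (0.85, SE 0.29, adjusted p = 0.052), Tcf7, Lcp2, Txk and Lef1. This count stayed between 23 and 29 with each tumor left out. In 11 of 36 genes, all 6 tumors with the antibody were above all 6 without (3.54% of all genes). Slamf1, Bcl11b, Sit1 and Sh2d1a are not among these 11.

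Tumors of a group differed in how high the T cell genes were as a set. The mean log2 difference of the 33 genes from the CK mean was 0.10, -0.19 and 0.09 in the CK tumors, 0.28, 0.23 and 0.45 with PB-020, 1.96, 0.68 and 0.74 with anti-PD-1, and 1.06, 1.58 and 1.36 in the combination. In log2 CPM, anti-PD-1 tumor 1 was the highest tumor of its group for 33 of 33 genes and the highest of all 12 for 31. CK tumor 2 was the lowest of all 12 for 16. After each group mean was subtracted, the correlation of a gene with the mean of the other 32 over the 12 tumors ran from 0.96 for Cd8a to 0.31 for Gata3 and 0.13 for Tcf7. The median over 528 gene pairs was 0.68, and 0.27 without anti-PD-1 tumor 1. These correlations share libraries and are given as a description.

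Ratios between T cell genes were compared between the 6 tumors with the antibody and the 6 without, to see which genes moved by unequal amounts. They are log2 ratios of FPKM + 0.1, tested by an exact two-sided permutation test, with p adjusted over the 8 ratios. For Tcf7 to Cd3e and Lef1 to Cd3e no test is given, because the Cd3e levels of the tumors with and without the antibody do not overlap, as given above, while Tcf7 and Lef1 had no call, so these ratios restate the Cd3e levels. The Tcf7 to Cd3e ratio was 3.56 ± 0.26 (SD, n = 6) without and 2.27 ± 0.63 with the antibody. The Lef1 to Cd3e ratio was -0.76 ± 0.60 (SD, n = 6) without and -2.03 ± 0.23 with it.

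The Cd8a to Cd4 and Tbx21 to Gata3 ratios had higher means with the antibody, with calls that depended on the adjustment. These ratios partly restate the levels of Cd8a and Tbx21, which by themselves did not overlap between tumors with and without the antibody. The Cd8a to Cd4 ratio was 1.11 ± 0.35 (SD, n = 6) without and 1.59 ± 0.23 with it, a difference of 0.48 (exact p = 0.019, adjusted p = 0.039). The Tbx21 to Gata3 ratio was -2.08 ± 0.61 (SD, n = 6) without and -1.20 ± 0.35 with it, a difference of 0.88 (exact p = 0.017, adjusted p = 0.039). When the exact p was adjusted over the 6 ratios other than the pair described above, the adjusted p was 0.058 for both and neither passed. Their ranges overlapped. With p adjusted over 8, the first lost its call without any single tumor other than CK tumor 3 and PB-020 tumor 2, with differences of 0.36 to 0.54, and the second without any other than CK tumor 3, PB-020 tumor 3 and anti-PD-1 tumor 2, with differences of 0.71 to 1.03. The other 4 ratios did not pass. They were Lck to Cd3e (difference -0.51, exact p = 0.032, adjusted p = 0.052, and passing without anti-PD-1 tumor 2 at -0.65), Cd8b1 to Cd8a (0.19, exact p = 0.29), Cd247 to Cd3e (-0.17, exact p = 0.42) and Icos to Cd28 (0.01, exact p = 0.95). These differences pool tumors with and without PB-020. Cd8b1 to Cd8a differed by 0.53 between anti-PD-1 and CK and by -0.14 between the combination and PB-020. For Icos to Cd28 these were -0.19 and 0.2. All other ratios had the same sign in both comparisons, which were not tested.

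**Figure D5:**
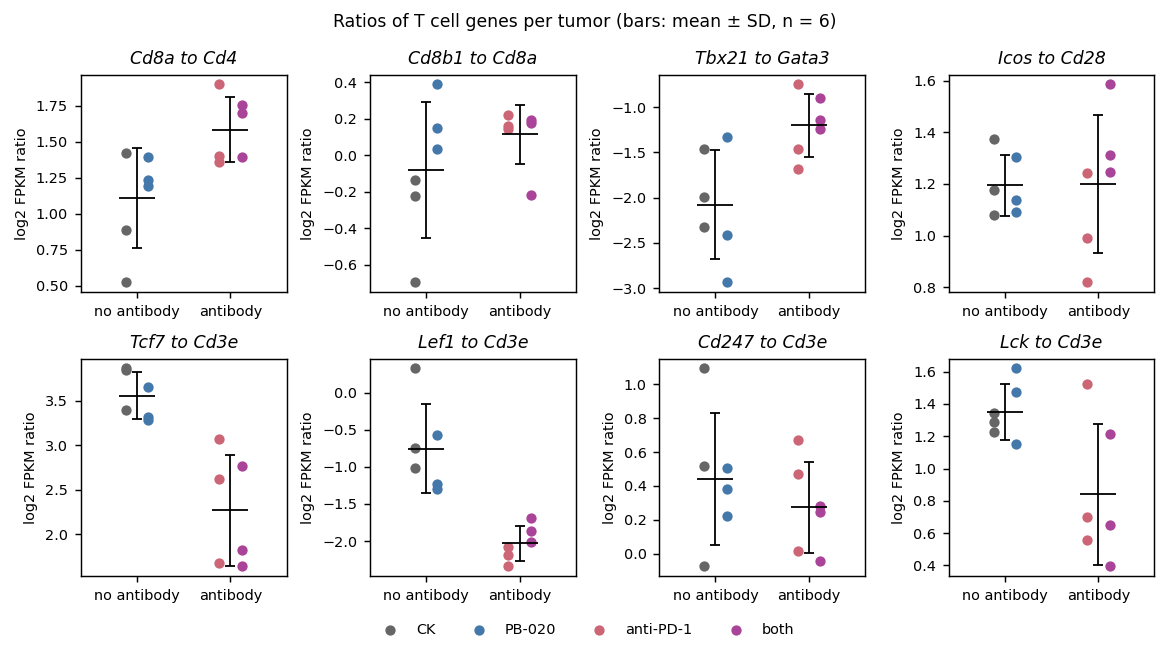
Log2 FPKM ratios (vertical axis, pseudocount 0.1) of 8 pairs of T cell genes in tumors without and with the anti-PD-1 antibody (points coloured by group, both marking the combination, bars mean ± SD, n = 6). The Cd8a to Cd4 and Tbx21 to Gata3 ratios overlap between tumors with and without the antibody, and the Tcf7 to Cd3e and Lef1 to Cd3e ratios follow the Cd3e levels.

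Other genes of the receptor pathway were called in smaller shares than the T cell genes. Of 77 listed genes of early signaling, the NF-kB branch, the NFAT and MAP kinase branches, and targets induced by the receptor, 75 were tested. In the combination 12 rose and 6 fell, beside 8.35% and 9.6% of all genes, with a median log2 change of 0.05. With anti-PD-1, 7 rose and 1 fell, beside 4.18% and 4.08% of all genes, and with PB-020 0 did (0% of all genes). The raised genes with the smallest p were Ifng, the interferon gamma gene (2.08, SE 0.45, edgeR adjusted p = 0.0094), Grap2, a LAT-binding adaptor (1.33, SE 0.28, adjusted p = 0.0079), Malt1, a protease of the NF-kB branch (0.58, SE 0.11, adjusted p = 0.0050), the MAP kinase kinase gene Map2k1 (0.38, SE 0.08) and Csk, a kinase that inhibits LCK (0.33, SE 0.08).

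The 6 lowered of 75 are near the share of all genes lowered in the combination, 9.6%. They include the calcineurin gene Ppp3ca (-0.53, SE 0.11, edgeR adjusted p = 0.0073), the kinase genes Mapk14 (-0.21, SE 0.06) and Mapk3 (-0.25, SE 0.08), and the ubiquitin ligase gene Traf6 (-0.29, SE 0.08). Mean levels (± SD, n = 3) of Ifng were 0.757 ± 0.0551 FPKM in CK and 3.18 ± 1.01 FPKM with both treatments. Those of Ppp3ca were 44.2 ± 5.88 and 30.3 ± 2.08 FPKM. The part of T cells in the levels of these pathway genes was not tested.

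Summed levels of some other cell markers were also higher in the combination. Beside the counts given here, 8.35% of all genes rose in the combination and 4.18% with anti-PD-1. The summed level of 9 natural killer cell markers was 11.5 to 14.9 FPKM in CK, 13.7 to 20.4 with PB-020, 16.7 to 38.8 with anti-PD-1, where 2 of 9 rose, and 29.7 to 42.9 in the combination, where 5 of 9 rose. That of 7 pan-leukocyte genes was 402 to 559 FPKM in CK, 454 to 507 with PB-020, 485 to 726 with anti-PD-1, where 0 of 7 rose, and 615 to 707 in the combination, where 3 of 7 rose. That of 8 dendritic cell genes was 11.5 to 13.5 FPKM in CK, 10.3 to 13.6 with PB-020, 13.5 to 21.2 with anti-PD-1, where 0 of 8 rose, and 15.6 to 17.6 in the combination, where 1 of 8 rose, near the share of all genes. Of the natural killer cell markers, Klrd1 was the highest in the combination, at 8.99 to 15.43 FPKM against 2.39 to 4.02 in CK. Eomes of the same list lay at 2.34 to 2.71 FPKM in the combination and at 2.37 to 3.22 in CK.

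B cell markers stayed low, at a sum of 0.93 to 3.81 FPKM for 9 genes with 2 tested, highest in anti-PD-1 tumor 1. The sum of 3 lymph node genes, nearly all of it the chemokine Ccl21a, was 7.61 and 9.02 FPKM in anti-PD-1 tumors 1 and 3 and 12.2 and 7.37 in combination tumors 2 and 3, against 1.99 or less in the other 8 tumors. Macrophage markers summed to 797 to 1440 FPKM, highest in anti-PD-1 tumor 1. Of 4 listed genes of gamma delta T and innate lymphoid cells, Il23r and Blk lay at or near 0 in every tumor, and the sum was 2.97 to 4.43 FPKM. The part of these cells in the levels of the T cell genes was not tested.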

How the data were processed

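RNA of 12 MC38 tumors was sequenced by the authors as pairs of 150-base reads, aligned with Bowtie2 and quantified with RSEM. The submitters' processing notes also name HISAT, and GRCm38.p6 as the genome build; tool versions are not given in the sources used here. The authors deposited expected counts (estimated, not normalized, 91.0% of values whole), FPKM (expected counts per gene length and library total) and TPM (deposited by the authors, not used here) per tumor. The authors' group averages were not used. Sums of expected counts were 16545394 to 17217035, so error from depth is large only for genes with few counts.

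Expected counts were rounded, kept by edgeR 4.0.16 filterByExpr where they reached a minimum count of 10 (13563 genes), scaled by TMM and fitted in R 4.3.3 by edgeR's robust quasi-likelihood model with 4 group means over all 12 tumors. Tests were two-sided, with p adjusted by Benjamini-Hochberg over all 13563 genes. The authors compared groups per gene on FPKM. Levels are FPKM, and ratios of FPKM used exact permutation tests (SciPy 1.17.1). The computation was tested on simulated counts. The main fit did not pair tumors across groups by their numbers.

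The T cell genes, the pathway and marker lists and the tests were chosen with earlier results of these data known. Levels per tumor are given for the CD3 chains and coreceptors and, in each other role, for the 2 genes with the smallest and the 1 with the largest unadjusted p in the combination against CK. Of the pathway list, 5 genes in each direction, those of smallest p, are named, and outside the lists the 8 genes most correlated with the T cell genes, of which 1 in each set is not reported here. The lists were matched by symbol, and 4 marker symbols found no match (2 of lymph node cells, 2 of gamma delta T cells). Promoters shown were chosen after the values were seen. Alternatives were DESeq2 1.42.0, limma 3.58.1 on log2(FPKM + 1) and log2(FPKM + 0.1), no filter, a strict filter (10 or more counts in every tumor), library size scaling, a fit restricted to the groups in question, a block for replicate number, leaving out each tumor, a pseudocount of 1 for ratios and, both chosen after seeing the data, CK tumor 3 and anti-PD-1 tumor 1 left out together, and ratios adjusted over 6.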

Additional observations from a re-analysis of the deposited data

Results flagged for a closer look

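Among 16 sets of 6 tumors (8 ratios, with and without the antibody), 1 held a tumor far from the others by Dixon's test for 6 values, and chance gives about 1 in 20. The log2 Cd8b1 to Cd8a ratio of combination tumor 1 was -0.22, where the other 5 tumors with the antibody lay between 0.15 and 0.22.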

How the results depend on the processing

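With 3 tumors per group, the counts of T cell genes called moved with single tumors and with the fit, while the medians against CK stayed above 0. Without 1 tumor at a time they ranged from 1 to 23 for anti-PD-1 against CK, from 9 to 27 for the combination against CK and from 0 to 23 for the combination against PB-020. The medians ranged from 0.88 to 1.61 for anti-PD-1 against CK, from -0.14 to 0.62 for the combination against anti-PD-1 and from -0.43 to 0.30 for the interaction. The count for anti-PD-1 was 9 with limma on log2(FPKM + 1), 0 with only the groups compared and 4 without CK tumor 3 and anti-PD-1 tumor 1. The count for the combination against PB-020 was 13 with DESeq2, 1 and 2 with limma at pseudocounts of 1 and 0.1, 25 with only the groups compared and 23 without those tumors. With limma on log2(FPKM + 1), which shrinks changes of low genes, the medians were 0.57 for anti-PD-1, 0.63 for the combination against CK and 0.56 for the combination against PB-020.

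With the replicate number as a block, 13 genes were called for anti-PD-1, 23 for the combination against CK and 1 for the combination against PB-020. Tumors with the same number had correlations of -0.21 to 0.289 over 18 pairs, with 2 over 0.1, and 3 of 12 tumors correlated best with their own number. Whether tumors with the same number shared anything else is not stated in the sources used here.

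Without 1 tumor at a time, the ratio differences ranged from 0.36 to 0.54 for Cd8a to Cd4, from 0.71 to 1.03 for Tbx21 to Gata3, from -0.65 to -0.42 for Lck to Cd3e and from -0.07 to 0.08 for Icos to Cd28. With p adjusted over 6 ratios in place of 8, the differences of 0.48 for Cd8a to Cd4 and 0.88 for Tbx21 to Gata3 no longer passed. With a pseudocount of 1, Tbx21 to Gata3 was 0.23 and no longer passed. Icos to Cd28 was -0.01 without CK tumor 3 and anti-PD-1 tumor 1. Of the settings for single genes in the combination against CK, 578 kept direction and call, 63 lost the call, 10 gained it and 1 changed sign (Lef1, -0.04 without combination tumor 2, with values up to 0.50 without CK tumor 2). The cause of these moves was not tested. Depth limits the genes under 1 FPKM most, Trat1, Sit1 and Sh2d1a among them.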

Other observations

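Among the genes outside the list that followed the mean of the 33 T cell genes most closely within groups, over 12 tumors among 12730 candidates, were Tek, Entpd1, Nxpe5, Cox6a2, Sept1, Ablim1 and C1qc, with correlations of 0.984 to 0.967. Without anti-PD-1 tumor 1 these were 0.908, 0.938, 0.879, 0.917, 0.883, 0.824 and 0.842. The points share libraries and group means, and 151 candidates (1.19%) were above 0.9. Of the genes named, Sept1 rose in the combination against CK (log2 change 1.06, SE 0.27, edgeR adjusted p = 0.017). The others had log2 changes of -0.39 for Tek, the angiopoietin receptor, to 0.56 for Ablim1 and did not pass.

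Erythroid markers were lower in tumors with the antibody. Beside the counts given here, 9.6% of all genes fell in the combination and 4.08% with anti-PD-1. The summed level of 6 erythroid genes was 679 to 1560 FPKM in CK, 449 to 1050 with PB-020, 101 to 380 with anti-PD-1 and 127 to 184 in the combination, and 5 of the 6 fell in each antibody group. That of 8 fibroblast genes was 1790 to 2440 FPKM in CK, 1680 to 1740 with PB-020, 764 to 1510 with anti-PD-1 and 800 to 1170 in the combination, and 4 of 8 fell in each antibody group. Its main part is Col3a1, and the median log2 change of the 8 genes was 0.01 with anti-PD-1 and -0.16 in the combination. The summed level of 6 endothelial genes was 31.6 to 60.7 FPKM over all tumors, and 0 of the 6 passed in either group.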
